A study of Mus musculus with 12 samples.

Results

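Imprinted genes are read mainly from the copy inherited from 1 parent. The 10 imprinted genes described here were chosen by name: Airn, Igf2r, H19, Igf2, Meg3, Rian, Mirg, Grb10, Ndn and Peg3. Earlier results of these data were known when they were chosen. All 10 were found among the 35275 genes of the deposited table by their Ensembl identifiers. They were followed in hematopoietic stem cells, the source of all blood cells, sorted as primary cells from C57BL/6 mice. The mice were wild type (Thpo+/+) or lacked Thpo (Thpo-/-), the gene of thrombopoietin, a cytokine of stem cells and megakaryocytes. Each genotype was left untreated or received intravenous Romiplostim, a drug that activates the thrombopoietin receptor, for 10 days (100 µg/kg per day). There were 3 libraries in each of the 4 groups. The controls are called untreated in their labels, while the protocol names a PBS control. The labels do not give the animals' age or sex, nor do they say that replicates are separate animals, so the p-values measure only the spread between these samples.

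Imprinting rests on DNA methylation that is set in the egg or sperm and kept afterwards, so that the copies from the mother and the father behave differently. Many imprinted genes act on growth, and several members of this group are known for holding blood stem cells in a resting state. Airn is a long noncoding RNA read from the paternal copy, antisense to the maternally expressed Igf2r, whose protein takes up the growth factor IGF2 for breakdown. H19 is a maternal noncoding RNA beside the paternally expressed Igf2. Meg3, Rian and Mirg are maternal noncoding RNAs of the Dlk1-Dio3 cluster. Grb10 encodes an adaptor that restrains the insulin and IGF1 receptors. Ndn encodes necdin, a protein that binds p53 and E2F1, and Peg3 encodes a zinc finger protein.

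Airn and Igf2r start within each other's neighbourhood on chromosome 17 (mm10), Airn on the plus strand from 12741311 to 12860136 and Igf2r on the minus strand from 12682406 to 12769664. The promoters below belong to the 4 members with enough signal to test, and they come from RefSeq (GRCm38.p6, which has the coordinates of mm10). Each runs 5′ to 3′ on its gene's strand, from 250 bases before the start annotated in RefSeq to 50 after it. For Ndn and Grb10 these starts lie inside the gene spans given further below, which come from another annotation (GENCODE M21). The capitals mark CpG, the pair of bases that carries the methylation of imprinting. A promoter was found for 9 of the 10 members, 14 promoters in all, and Grb10 has a pair of them.
Airn, chr17:12741061-12741360, plus strand: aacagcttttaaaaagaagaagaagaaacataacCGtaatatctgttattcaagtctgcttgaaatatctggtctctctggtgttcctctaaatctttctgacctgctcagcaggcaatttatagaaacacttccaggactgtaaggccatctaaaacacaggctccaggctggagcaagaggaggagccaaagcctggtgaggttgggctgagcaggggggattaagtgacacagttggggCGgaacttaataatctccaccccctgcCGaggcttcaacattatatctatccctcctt
Igf2r, chr17:12769657-12769956, minus strand: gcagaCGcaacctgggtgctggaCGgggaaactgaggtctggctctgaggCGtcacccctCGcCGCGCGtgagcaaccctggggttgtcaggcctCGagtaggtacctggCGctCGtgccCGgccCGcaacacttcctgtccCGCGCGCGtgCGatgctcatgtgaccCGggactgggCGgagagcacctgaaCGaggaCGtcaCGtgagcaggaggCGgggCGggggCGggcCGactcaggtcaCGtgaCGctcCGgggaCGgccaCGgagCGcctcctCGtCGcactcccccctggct
Grb10, upstream start, chr11:12037371-12037670, minus strand: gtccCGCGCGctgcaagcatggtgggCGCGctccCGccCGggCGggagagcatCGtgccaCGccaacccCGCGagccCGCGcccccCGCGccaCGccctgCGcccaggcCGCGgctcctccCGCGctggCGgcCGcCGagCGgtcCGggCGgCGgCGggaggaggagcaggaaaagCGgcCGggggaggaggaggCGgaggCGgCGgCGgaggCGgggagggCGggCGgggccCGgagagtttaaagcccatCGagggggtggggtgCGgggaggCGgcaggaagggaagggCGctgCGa
Grb10, downstream start, chr11:12027922-12028221, minus strand: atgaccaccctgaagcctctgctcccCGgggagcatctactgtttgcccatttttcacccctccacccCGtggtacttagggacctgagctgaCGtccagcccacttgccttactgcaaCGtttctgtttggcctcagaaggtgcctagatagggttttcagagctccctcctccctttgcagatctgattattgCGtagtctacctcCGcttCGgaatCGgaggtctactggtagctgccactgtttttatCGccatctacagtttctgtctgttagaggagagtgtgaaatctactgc
Ndn, chr7:62348027-62348326, plus strand: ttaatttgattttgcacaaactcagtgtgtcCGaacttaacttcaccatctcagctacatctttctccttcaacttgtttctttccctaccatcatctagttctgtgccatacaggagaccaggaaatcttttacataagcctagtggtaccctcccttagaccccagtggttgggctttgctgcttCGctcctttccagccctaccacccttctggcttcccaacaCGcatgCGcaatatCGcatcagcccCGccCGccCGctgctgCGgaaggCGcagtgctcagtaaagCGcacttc
The Igf2r promoter held 34 CpG and the upstream Grb10 promoter 45, against a median of 7 over 32851 promoters of the same length. As many as 34 were found in 7.7% of all promoters, and as many as 45 in 1.9%. The Airn promoter held 3, the downstream Grb10 promoter 9 and the Ndn promoter 11. The letters TGCCGC, the core bound by the imprint-keeping protein ZFP57, were sought on both strands. They occurred once in the upstream Grb10 promoter, at base 275 of the 300, and in none of the other 4 printed; 11.6% of all promoters hold them. The STAT letters TTCNNNGAA were in none of these 5 and in 8.3% of all promoters. These are matches of letters only, and no methylation or binding was measured.

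Values are given in FPKM, fragments scaled to transcript length and library depth, as the authors calculated them. Libraries held 27.7 to 35.6 M fragments as recovered from the steps of the FPKM values, and 11262 to 12374 genes at 1 FPKM or more. Genes with at least 1 FPKM in at least 3 libraries were tested, 12823 in all, on log2(FPKM + 1). On this scale the change of a low gene is understated. A gene that is high in only 1 group can pass through that group alone, and its call is then favoured by the filter. Among the members Airn, Igf2r, Grb10 and Ndn passed that filter, and H19, Igf2, Meg3, Rian, Mirg and Peg3 did not. A group's 3 libraries were sequenced in the same run, which cannot be told apart from the group. The library labels were checked on Thpo, which was at 0 in all 6 knockout libraries but also in 4 of the 6 wild-type ones, so this check shows nothing about genotype.

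The sort was checked on 14 stem cell markers, all of which reached 1 FPKM in every library apart from untreated knockout, where 12 did. Their summed level was 1989 to 2605 FPKM in untreated wild type, 628.0 to 842.9 in untreated knockout, 1714 to 2121 in treated wild type and 1108 to 1863 in treated knockout. Markers of several other cells were at their highest where these were lowest. The 10 B cell markers summed to 86.5 to 98.4 FPKM in untreated wild type, 1692 to 4211 in untreated knockout, 67.2 to 70.4 in treated wild type (where Pax5 was at 0) and 95.4 to 650.5 in treated knockout. The 9 macrophage markers gave 50.2 to 69.1, 1031 to 3032, 14.1 to 23.4 and 89.7 to 122 FPKM in the same order. The 15 stromal markers gave 22.2 to 80.3, 364.8 to 1184, 23.7 to 35.1 and 48.2 to 104.9 FPKM. For erythroid markers, 10 in number, the sums were 746.1 to 1248, 3488 to 14809, 73.4 to 145.1 and 1220 to 7437 FPKM. In the fit across genes, untreated knockout was lower in 12 of 14 stem cell markers. It was higher in 8 of 10 myeloid, 8 of 9 T and NK cell, 7 of 7 mast cell and basophil, 11 of 12 stromal and 4 of 8 endothelial markers tested, 3 of the last being lower, while 1 of 7 megakaryocyte markers was lower and none higher. Within untreated knockout, replicate 3 held the most stromal and erythroid marker RNA; within treated knockout, replicate 1 held the most erythroid marker RNA and the least of the stem cell markers, and replicate 2 the most B cell and macrophage as well as stem cell marker RNA. The untreated knockout libraries thus carried less stem cell RNA and more RNA of other blood and marrow cells, and the part of this in the results below was not tested. In such bulk samples fewer stem cells and less RNA of a gene per stem cell cannot be told apart.

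**Figure D1:**
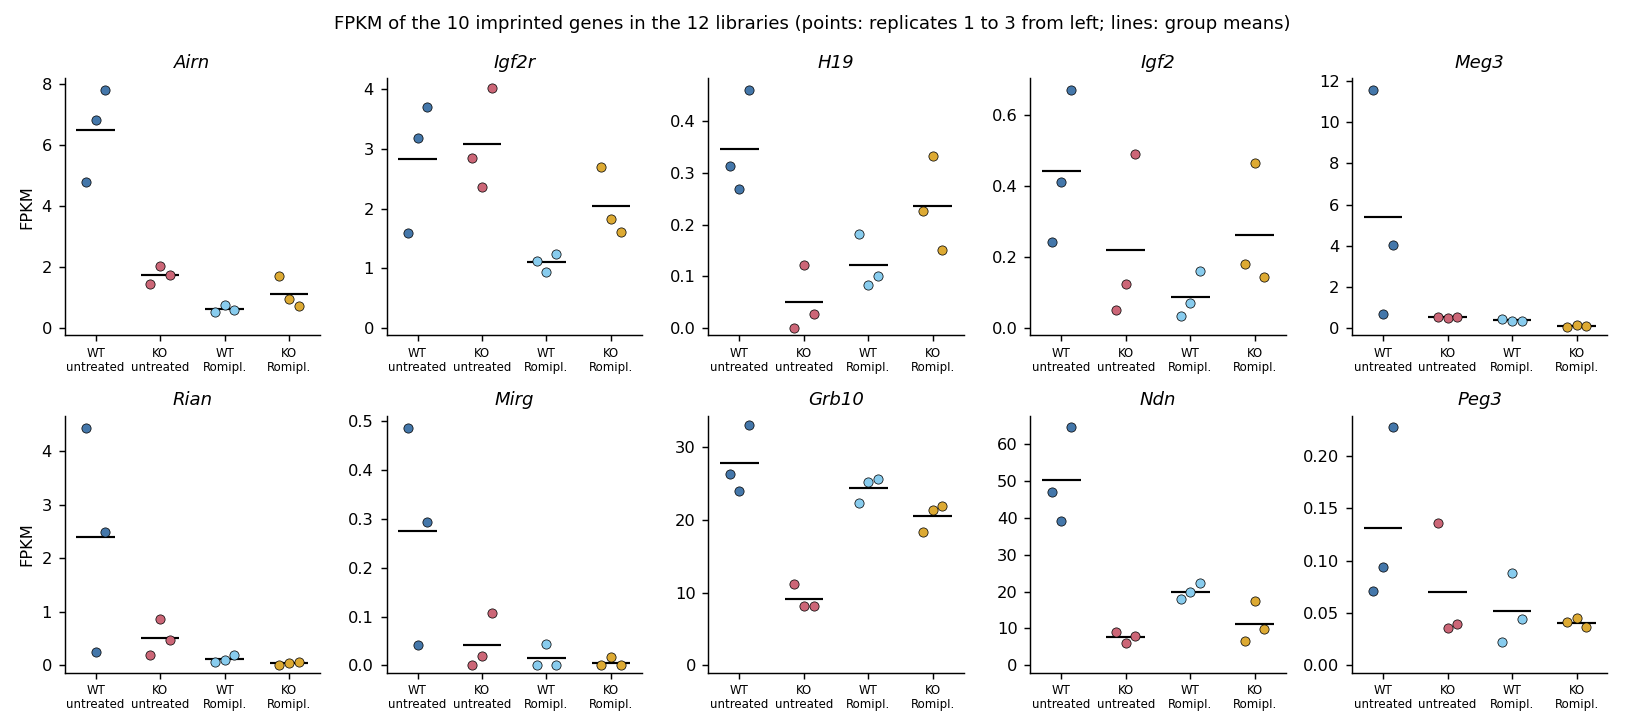
FPKM of each of the 10 genes (vertical axes, linear and separate) in the 3 libraries of each group, as points from replicate 1 on the left to replicate 3 on the right, with group means as lines. Airn and Ndn are highest in all 3 untreated wild-type libraries, Grb10 is low only in untreated knockout, and Meg3, Rian and Mirg are high in 2 of the 3 untreated wild-type libraries.

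Of the 4 tested members, Airn had the largest fall with Romiplostim in wild-type cells. Its level was 4.79, 6.83 and 7.82 FPKM in untreated wild type, and 0.539, 0.752 and 0.607 in treated wild type. In knockout cells it was 1.46, 2.04 and 1.76 FPKM without treatment and 1.72, 0.955 and 0.721 with it. All 3 untreated wild-type libraries lay above the other 9, while untreated and treated knockout overlapped. The mean fell 10.2-fold with Romiplostim in wild type (log2 change of FPKM + 1 of -2.18 ± 0.20 SE, adjusted p = 0.00028), which was the 9th smallest p among the 12823 genes. Without treatment the mean was 3.71-fold lower in knockout than in wild type (log2 change -1.43 ± 0.20, adjusted p = 0.000206). The drug changed Airn in knockout by -0.39 ± 0.20 (adjusted p = 0.164), and treated knockout differed from treated wild type by 0.36 ± 0.20 (adjusted p = 0.341). Without treated knockout replicate 1, the highest of its group, the change in knockout became -0.58 with an adjusted p of 0.0409. The response to the drug itself differed between genotypes by 1.79 ± 0.29 on the log2 scale (adjusted p = 0.00374).

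Igf2r, the receptor gene that Airn is known to silence on the paternal copy, was not called lower in untreated knockout as Airn was. Over the 12 libraries the correlation of log2(FPKM + 1) between the pair was 0.63, and 0.76 without untreated wild-type replicate 1. Igf2r stood at 1.59, 3.18 and 3.69 FPKM in untreated wild type, against 2.84, 2.37 and 4.02 in untreated knockout. It was 1.13, 0.938 and 1.24 FPKM in treated wild type and 2.69, 1.83 and 1.60 in treated knockout. The untreated groups overlapped, and treated wild type was lowest with no overlap with any other group. Knockout and wild type without treatment differed by 0.12 (95% interval -0.39 to 0.63, adjusted p = 0.708), an interval that holds changes of some size in either direction. With Romiplostim Igf2r changed by -0.82 ± 0.23 in wild type (adjusted p = 0.118) and by -0.42 ± 0.23 in knockout (adjusted p = 0.193). Without untreated wild-type replicate 1, the lowest of its group, the wild-type change became -1.08 with an adjusted p of 0.0414. Its drug response did not differ between genotypes past the test (0.40 ± 0.33, adjusted p = 0.435).

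The unstranded libraries cannot assign a fragment to Airn or Igf2r by strand, so the pair was read together. Their gene spans share 28354 bases, but no base of an annotated Airn exon lies in an Igf2r exon. Of the 8 Airn exons 1 lies within Igf2r, with 114 of the 3597 exonic bases, and there unspliced Igf2r RNA would count for Airn. In turn the shared span holds the start of Igf2r, and in its exons there unspliced Airn RNA would count for Igf2r. The part of this in the Igf2r values and in the ratios below was not tested. The ratio of Airn to Igf2r was 3.004, 2.151 and 2.118 in untreated wild type. It was 0.512, 0.859 and 0.436 in untreated knockout, 0.479, 0.802 and 0.491 in treated wild type, and 0.641, 0.522 and 0.451 in treated knockout. Airn exceeded Igf2r per length in all 3 untreated wild-type libraries and in none of the other 9. The log2 ratio differed from untreated wild type by -2.05 in untreated knockout and by -2.06 in treated wild type, each with a two-sided exact permutation p = 0.1, the smallest that 3 against 3 allows (adjusted over 4 comparisons, 0.2). In the other 2 comparisons the difference was -0.12 and -0.11 (exact permutation p = 0.9 and 0.8, adjusted 0.9).

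**Figure D2:**
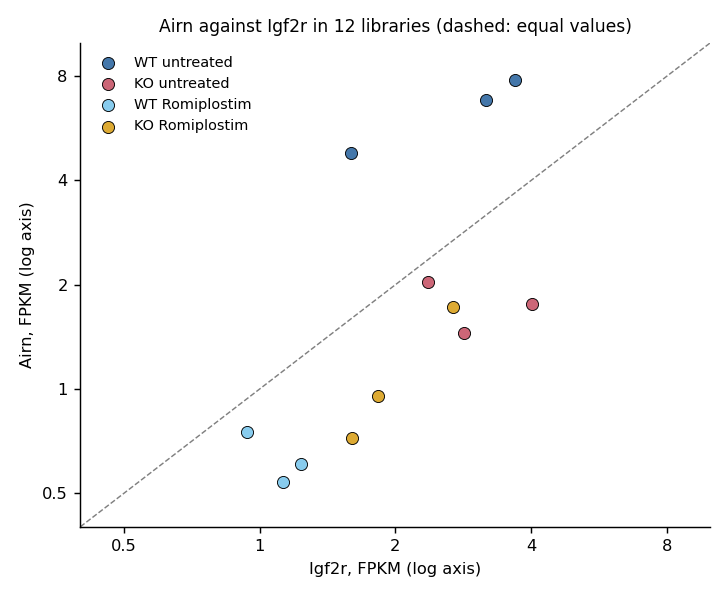
Airn against Igf2r in FPKM, both axes on a log scale, 1 point per library coloured by group, with a dashed line at equal values. The 3 untreated wild-type libraries lie above the line at ratios of 2.118 to 3.004, and the other 9 lie below it at 0.436 to 0.859.

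Slc22a3, a transporter gene farther along the same cluster that Airn silences in the placenta, was measured at 13.7, 14.5 and 17.7 FPKM in untreated wild type and 13.5, 9.07 and 10.3 in treated wild type. It was at 24.6, 18.0 and 12.2 FPKM in untreated knockout and 9.91, 8.05 and 9.64 in treated knockout. In both genotypes the treated libraries lay below all 3 untreated ones. In the fit Slc22a3 fell with Romiplostim in knockout (-0.87 ± 0.22, adjusted p = 0.0135). It missed the threshold in wild type (-0.46 ± 0.22, adjusted p = 0.416) or between the untreated genotypes (0.20 ± 0.22, adjusted p = 0.496).

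Grb10 (chromosome 11, 11930508 to 12038683, minus strand) was low in untreated knockout and higher again with the drug. Its level was 26.3, 24.0 and 33.0 FPKM in untreated wild type, against 11.2, 8.19 and 8.14 in untreated knockout. Under Romiplostim it was 22.3, 25.2 and 25.6 FPKM in wild type and 18.3, 21.3 and 21.9 in knockout. The untreated knockout libraries lay below all 9 others, and the treated groups lay close to each other without overlapping. Grb10 was 3.03-fold lower in untreated knockout than in untreated wild type by the means (log2 change -1.50 ± 0.16, adjusted p = 3.15e-05). Romiplostim raised it 2.24-fold in knockout (1.09 ± 0.16, adjusted p = 0.000539), and in wild type the change was -0.17 ± 0.16 (adjusted p = 0.727). The drug response differed between genotypes by 1.26 ± 0.22 (adjusted p = 0.00482). Between the treated genotypes Grb10 differed by -0.24 ± 0.16 (adjusted p = 0.407). The knockout groups also differed in 4 Y-linked genes, whose mean level was 11.3 to 24.9 FPKM in the untreated libraries and at most 0.039 FPKM in all 3 treated ones. In knockout, treatment and this difference therefore cannot be told apart from the libraries alone, which holds for every Romiplostim comparison in knockout given here and for the difference of responses. With the Y-linked level as a covariate, whose slope then comes from the wild-type libraries, the Grb10 rise in knockout was 1.30 ± 0.21 (adjusted p = 0.00619) and its difference of responses 1.47 ± 0.25 (adjusted p = 0.0203). In that fit 1059 genes were called with the drug in knockout in place of 3797, and the differences of responses were 1.81 for Airn (adjusted p = 0.0317) and 1.95 for Ndn (adjusted p = 0.0475).

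Ndn (chromosome 7, 62346569 to 62350262, plus strand, a single exon) was the most abundant member per length in untreated wild type, and by group means Grb10 was in the other 3. Ndn stood at 46.9, 39.1 and 64.7 FPKM in untreated wild type, against 9.02, 6.20 and 8.00 in untreated knockout. Treated wild type gave 17.9, 19.9 and 22.2 FPKM, and treated knockout gave 6.66, 17.3 and 9.82. Untreated wild type was above every other library, treated wild type came next without overlap, and the knockout groups overlapped each other. Ndn was 6.49-fold lower in untreated knockout than in untreated wild type by the means (log2 change -2.53 ± 0.28, adjusted p = 4.5e-05). Romiplostim lowered it 2.51-fold in wild type (-1.26 ± 0.28, adjusted p = 0.0448), a call so near the threshold that 14 of 23 alternative analyses lost it, with adjusted p up to 0.174. Leaving out any 1 of the 6 wild-type libraries was enough to lose it, and so was leaving out any untreated knockout library or treated knockout replicate 3. Same-numbered wild-type libraries deviated together, and with the replicate number as a block over the 12 libraries the adjusted p was 0.0689. In a fit of the 6 wild-type libraries alone with that block, chosen after seeing the data, it was 0.0187 (-1.26 ± 0.13). The labels do not say that equal numbers mark paired libraries. In knockout the drug changed Ndn by 0.41 ± 0.28 (adjusted p = 0.29), and the responses of the genotypes differed by 1.67 ± 0.40 (adjusted p = 0.0176). Under treatment knockout was below wild type by -0.87 ± 0.28 (adjusted p = 0.136); without treated knockout replicate 2, the highest of its group, this became -1.20 with an adjusted p of 0.0148.

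Against all genes tested, 3 of the 4 tested members fell in untreated knockout, where 23.0% of the 12823 genes were called lower. In wild type 2 of the 4 fell with Romiplostim, against 0.975% of all genes. In knockout 1 of the 4 rose with it, against 10.7%. None of the 4 was called by limma between the treated genotypes, where 1.37% of genes were called in either direction; at an unadjusted p under 0.05 Igf2r and Ndn would pass. Romiplostim acted more positively in knockout than in wild type on 3 of the 4, against 5.53% of all genes. The comparisons share groups, so these counts are not separate pieces of evidence. The members were chosen with earlier results of these data known, so their counts beside these shares are a description and no test.

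**Figure D3:**
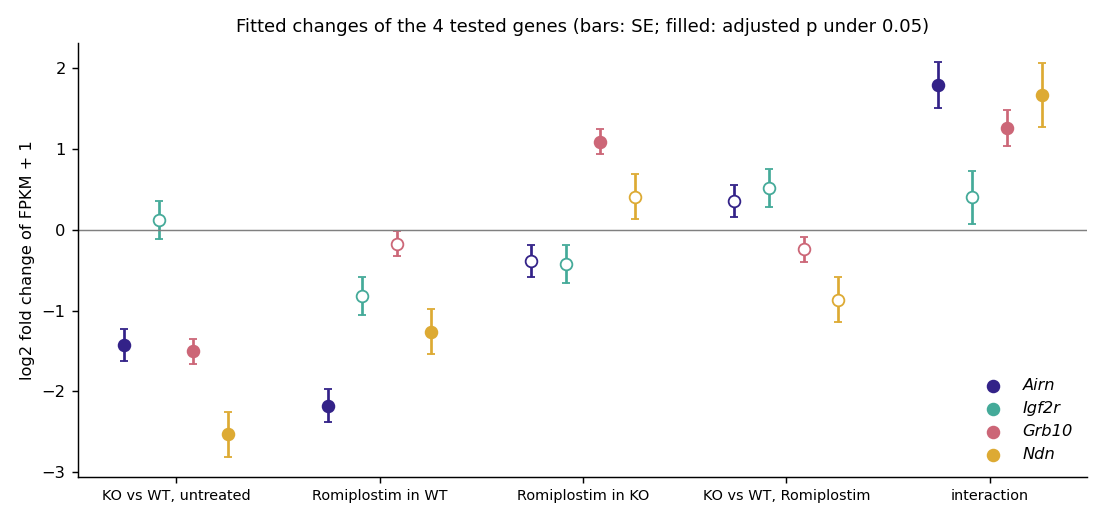
Log2 fold change of FPKM + 1 with its SE (vertical axis) for Airn, Igf2r, Grb10 and Ndn in the 5 comparisons (horizontal axis); filled points have an adjusted p under 0.05. Airn falls by 2.18 with Romiplostim in wild type and Grb10 rises by 1.09 in knockout, while no Igf2r point is filled.

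H19 (chromosome 7, 142575529 to 142578143, minus strand) was close to the detection limit everywhere. It measured 0.313, 0.269 and 0.460 FPKM in untreated wild type, against 0, 0.123 and 0.0275 in untreated knockout. It measured 0.182, 0.0831 and 0.101 FPKM in treated wild type and 0.227, 0.332 and 0.151 in treated knockout. Untreated wild type lay above untreated knockout and above treated wild type without overlap, and the treated groups overlapped. The FPKM steps give 14, 10 and 17 H19 fragments in untreated wild type, then 0, 5 and 1 in untreated knockout, 7, 3 and 4 in treated wild type and 8, 15 and 6 in treated knockout. A count of 3 fragments, taken here as an approximate upper limit for a count of 0, corresponds to 0.0664 to 0.0851 FPKM for this gene. Such limits cover counting error only.

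Igf2, the growth factor gene next to H19 (142650766 to 142666816, minus strand), was as scarce. It was at 0.241, 0.410 and 0.670 FPKM in untreated wild type, against 0.0496, 0.124 and 0.488 in untreated knockout. With the drug it was at 0.0330, 0.0703 and 0.161 FPKM in wild type and 0.180, 0.464 and 0.143 in knockout. The untreated genotypes overlapped, and treated wild type lay below untreated wild type. Untreated knockout replicate 3 held 28 of that group's 39 fragments. Replicate 2 of treated knockout held 33 of its group's 52. Most exonic bases of Igf2 (3596 shared) also belong to the read-through model Gm49394 on the same strand, which has no row of its own in the table.

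Meg3 (chromosome 12, 109541001 to 109571726, plus strand) varied widely between the untreated wild-type libraries. It was at 11.5, 0.682 and 4.02 FPKM there, and at 0.526, 0.506 and 0.542 in untreated knockout. It was at 0.427, 0.364 and 0.345 FPKM in treated wild type and 0.0667, 0.156 and 0.106 in treated knockout. The groups did not overlap in any of the 4 comparisons of groups, although untreated wild-type replicate 2 was only just above untreated knockout. Meg3 shares 1228 exonic bases with Gm26906 on the opposite strand, whose reads cannot be separated here.

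Rian (109603940 to 109661716, plus strand), which carries small nucleolar RNAs, followed the same order. Its untreated wild-type libraries held 4.44, 0.248 and 2.50 FPKM and its untreated knockout libraries 0.192, 0.860 and 0.482. With the drug the values were 0.0719, 0.102 and 0.187 FPKM in wild type and 0, 0.0409 and 0.0695 in knockout. Replicates 1 and 3 of untreated wild type were high, replicate 2 fell among the untreated knockout values, and treated knockout was lowest of all.

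Mirg (109729764 to 109749460, plus strand), the host of 14 of the microRNA hairpins matched to the members, was high in the same libraries. It measured 0.487, 0.0418 and 0.295 FPKM in untreated wild type, which is 28, 2 and 14 fragments. The other 9 libraries held between 0 and 5 fragments each. Untreated wild-type replicate 2 thus fell within the range of the other groups for Mirg as well. Mature microRNAs were not measured by these libraries.

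Dlk1, the paternally expressed gene of the same cluster, encodes a membrane protein of the Notch ligand family and showed the same contrast between the wild-type replicates. Untreated wild type held 26.03, 0.628 and 3.71 FPKM and untreated knockout 0.361, 0.603 and 0.468. Treated wild type held 1.80, 2.88 and 2.01 FPKM and treated knockout 0.430, 0.922 and 0.475. Replicate 1 of untreated wild type was highest for Dlk1, Meg3, Rian and Mirg, replicate 3 came next and replicate 2 was lowest of that group for all 4. Dlk1 was above 1 FPKM in treated wild type, where Meg3, Rian and Mirg were not. The fit called Dlk1 lower in untreated knockout (log2 change -2.005 ± 0.711, adjusted p = 0.0375). That call was lost without untreated wild-type replicate 1 (-0.91, adjusted p = 0.0626), without replicate 3 (-2.17, 0.0602) and without any single untreated knockout library (adjusted p up to 0.09), in refits chosen after seeing the data. Rtl1, next in the cluster, reached at most 0.0165 FPKM, and Dio3 was at 0 in all 12 libraries.

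Over the 12 libraries the correlation of log2(FPKM + 1) was 0.96 between Meg3 and Rian, 0.97 between Meg3 and Mirg and 0.95 between Rian and Mirg. Without untreated wild-type replicate 1 it was 0.92, 0.92 and 0.89. These genes share their libraries and their neighbourhood, and the values are a description. The 3 untreated wild-type libraries also differed in their Y-linked genes, with a mean level of 22.5, 0.137 and 23.2 FPKM, so that the library low for the cluster was the one without Y-linked RNA. Among the other groups all untreated knockout libraries (11.3 to 24.9 FPKM) and replicates 2 and 3 of treated wild type (18.5 and 21.2) held Y-linked RNA, and their Meg3 stayed at or below 0.542 FPKM. The part of this difference in the values of the cluster was not tested.

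**Figure D4:**
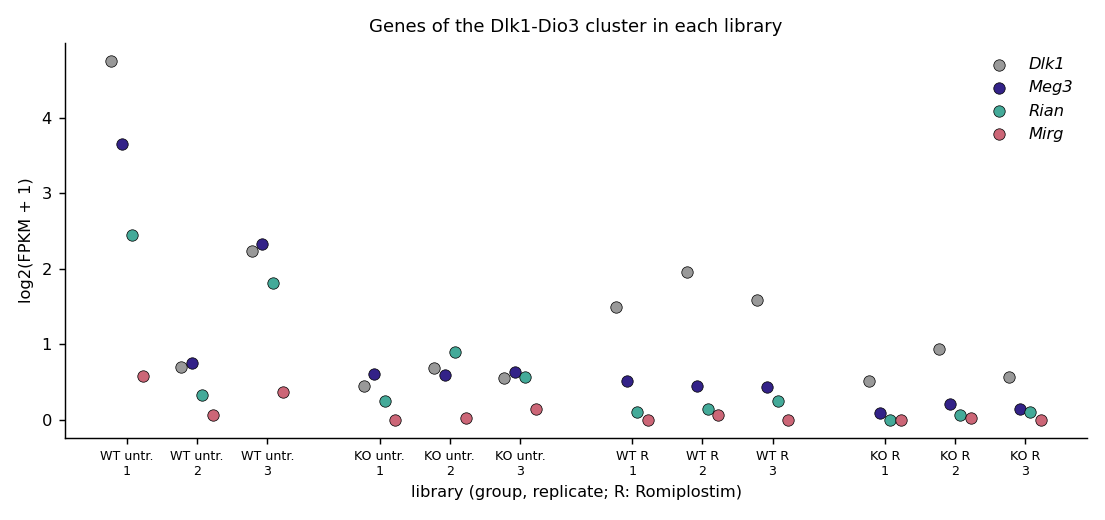
Log2(FPKM + 1) of Dlk1, Meg3, Rian and Mirg (vertical axis) in each of the 12 libraries (horizontal axis), grouped by genotype and treatment. Replicates 1 and 3 of untreated wild type hold the highest values of each gene, with Meg3 at 11.5 and 4.02 FPKM. Replicate 2 of that group is low, with Meg3 at 0.682. Mirg stays at or below 0.487 FPKM in every library.

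Peg3 (chromosome 7, 6703892 to 6730431, minus strand) was barely detected. It was at 0.0715, 0.0938 and 0.228 FPKM in untreated wild type, against 0.136, 0.0356 and 0.0399 in untreated knockout. It was at 0.0226, 0.0885 and 0.0441 FPKM in treated wild type and 0.0413, 0.0450 and 0.0364 in treated knockout. The groups overlapped in all 4 comparisons, and no Peg3 difference was called in the fit described next. With 3 to 29 fragments a library, a difference could be missed at this depth.

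The 6 scarce members were also read from a fit of all 26521 genes above 0 in at least 1 library. In it H19 was called lower in untreated knockout than in untreated wild type (-0.36 ± 0.07, adjusted p = 0.00444), and so was Meg3 (-1.63 ± 0.53, adjusted p = 0.0468). That is 2 of the 6, where 12.2% of these genes were called lower. The H19 call remained in all 13 refits made after seeing the data, of which 12 left out 1 library each (adjusted p up to 0.0211). The Meg3 call was lost in 11 of 13, with a value of -0.93 and an adjusted p of 0.0873 without untreated wild-type replicate 1. H19 was also the 1 of 6 whose drug response was more positive in knockout than in wild type (0.50 ± 0.10, adjusted p = 0.0209), where 2.01% of genes were. That call was lost without treated wild-type replicate 2 (adjusted p = 0.0641) or replicate 3 (adjusted p = 0.0628).

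In limma none of the 6 passed in the other 3 comparisons of that fit. With Romiplostim in wild type 0.811% of genes were called, and Meg3 changed by -1.78 ± 0.53 (adjusted p = 0.204) and Rian by -1.36 ± 0.42 (adjusted p = 0.216). At an unadjusted p under 0.05 H19, Igf2, Meg3, Rian and Mirg would pass there. With the drug in knockout 14.7% of genes were called, and H19 changed by 0.24 ± 0.07 (adjusted p = 0.0506), the one member of the 6 under an unadjusted p of 0.05. Between the treated genotypes 0.215% were called, and none of the 6 had an unadjusted p under 0.05.

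Without a test, the groups of 3 libraries did not overlap for 5 of the 10 members between the untreated genotypes, all of them lower in knockout (36.9% of genes did not overlap there, in either direction). For Romiplostim in wild type this held for 7 of 10, all lower with the drug: Airn, Igf2r, H19, Igf2, Meg3, Rian and Ndn (18.2% of genes). Airn with Igf2r, H19 with Igf2, and Meg3 with Rian are neighbours, so the 7 are not independent. Of the 7, only Airn and Ndn were called in the fits. In knockout 2 members were higher with the drug, H19 and Grb10, and Meg3 and Rian were lower (27.0% of genes). Between the treated genotypes Igf2r was higher in knockout, and Meg3, Rian, Grb10 and Ndn were lower (16.2% of genes). Untreated wild type is part of the first 2 of these comparisons, which are therefore not independent. Here too the members were chosen with earlier results of these data known, and the counts are a description.

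Other imprinted genes gave a mixed picture. Over all 12823 genes 23.0% were lower and 22.1% higher in untreated knockout, and with Romiplostim in knockout 10.7% rose and 18.9% fell; the counts of each list below are read beside these shares. Of 10 tested genes known as paternally expressed, 4 were lower in untreated knockout and none was higher, with a median log2 change of -0.09 against -0.03 over all genes. The 4 were Sgce (-1.46 ± 0.24, adjusted p = 0.000571), the noncoding RNA Kcnq1ot1 (-0.66 ± 0.17, adjusted p = 0.00699), Mkrn3 (-0.73 ± 0.18, adjusted p = 0.007) and Dlk1. Mkrn3 would not have passed the filter without untreated wild type, where it was highest, so its call is favoured by the filter. Sgce, which encodes a sarcoglycan, was at 42.4, 38.9 and 37.8 FPKM in untreated wild type, against 14.8, 11.6 and 15.3 in untreated knockout, with no overlap. Romiplostim raised 3 of the 10 in knockout, Sgce (0.80 ± 0.24, adjusted p = 0.0281), Kcnq1ot1 (0.52 ± 0.17, adjusted p = 0.0358) and Nespas (0.62 ± 0.20, adjusted p = 0.0399), and lowered none. Leaving out replicate 3 of untreated knockout and replicate 2 of treated knockout, those counts became 3 lower in untreated knockout, and 1 raised and 1 lowered by the drug in knockout.

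Of 27 tested genes known as maternally expressed, 9 were lower and 4 higher in untreated knockout (median -0.17), shares not far from those over all genes. Phlda2, a small protein known for limiting placental growth, was lower (-1.41 ± 0.16, adjusted p = 5.44e-05), as were Ppp1r9a (-1.63 ± 0.22, adjusted p = 0.000146) and the transporter Slc22a18 (-1.48 ± 0.21, adjusted p = 0.000198). Dcn, which encodes the matrix protein decorin and is also 1 of the 15 stromal markers, was higher (1.41 ± 0.21, adjusted p = 0.000282). Its mean was 2.72 FPKM in untreated knockout, 0.380 in untreated wild type, 0.031 in treated wild type and 0.312 in treated knockout. Dcn thus passed the filter mainly through the group where it was high. Phlda2 stood at 25.0, 30.8 and 36.2 FPKM in untreated wild type, against 11.96, 9.25 and 11.3 in untreated knockout. It stood at 47.6, 49.1 and 51.8 FPKM in treated wild type and 14.3, 19.7 and 18.6 in treated knockout, so that its genotypes lay apart under both treatments. It was the only one of the 27 called between the treated genotypes (-1.46 ± 0.16, adjusted p = 0.00118); without the same 2 libraries 4 were called lower. In wild type the drug changed none of the 37 past the test, and Phlda2 came nearest (0.69 ± 0.16, adjusted p = 0.0557). Without replicate 3 of untreated and replicate 2 of treated knockout, 1 paternal and 1 maternal gene were called higher there. At an unadjusted p under 0.05, 2 of the 10 paternal and 5 of the 27 maternal genes would pass there.

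**Figure D5:**
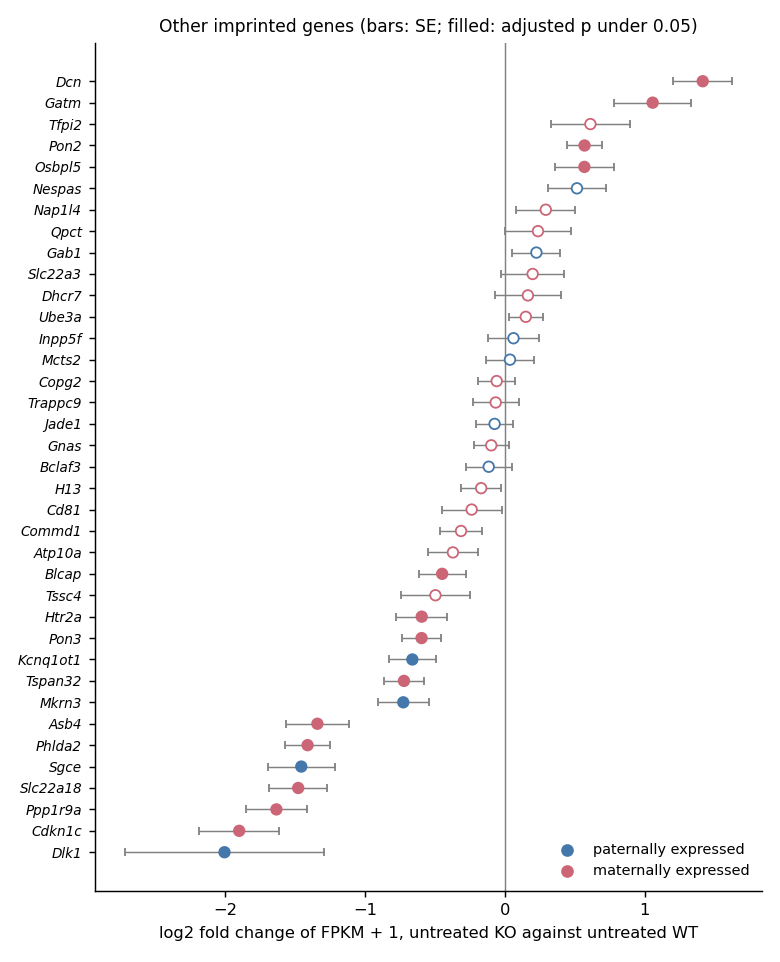
Log2 fold change of FPKM + 1 with its SE in untreated knockout against untreated wild type (horizontal axis) for the 37 other tested imprinted genes (vertical axis, sorted), blue for paternally and red for maternally expressed; filled points have an adjusted p under 0.05. Genes of both kinds lie on the low side, from Dlk1 at -2.005, and Dcn is highest at 1.41.

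Ndn lies in the Prader-Willi cluster with Mkrn3 and Peg12, which are paternally expressed like it. Mkrn3, a ubiquitin ligase gene, was at 1.74, 1.17 and 1.43 FPKM in untreated wild type, against 0.493, 0.525 and 0.397 in untreated knockout, without overlap. It was at 1.05, 0.967 and 0.972 FPKM in treated wild type and 0.340, 1.19 and 0.463 in treated knockout. Mkrn3 thus passed the filter mainly through the group where it was high. Peg12 was at 1.01, 0.725 and 1.24 FPKM in untreated wild type, then 0.313, 0.212 and 0.423 in untreated knockout, 0.911, 0.573 and 0.658 in treated wild type and 0.273, 0.437 and 0.579 in treated knockout; it was below the filter. For both, untreated wild type was above untreated knockout in every library, as for Ndn, but at levels about 1 FPKM. Among 11 tested genes that lie near a member, 2 were higher and 3 lower in untreated knockout. The higher ones were Fignl1 (1.10 ± 0.18, adjusted p = 0.00044) and the lymphoid transcription factor gene Ikzf1 (0.58 ± 0.17, adjusted p = 0.0165), both near Grb10. Ddc, also near Grb10, was not called (0.31 ± 0.32, adjusted p = 0.447). Of the lower ones Mrpl23, a mitochondrial ribosome gene near H19 and Igf2, had the smallest p (-0.77 ± 0.14, adjusted p = 0.000816). The other lower ones, Mkrn3 and Dlk1, were already counted above among the paternally expressed genes. Counts of 2 and 3 among 11 genes are near the shares over all genes.

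The pathway that Igf2r, Igf2 and Grb10 act on was followed with 36 tested genes of IGF and insulin signalling. In untreated knockout 11 were higher and 4 lower (median 0.17), against 22.1% and 23.0% of all genes. Igf1, the other growth factor of the pathway, rose (2.30 ± 0.25, adjusted p = 4.06e-05), as did the adaptor Grb7, a relative of Grb10 (2.78 ± 0.33, adjusted p = 6.45e-05), and the phosphatidylinositol kinase subunit Pik3r2 (1.32 ± 0.19, adjusted p = 0.000234). Grb7 had means of 0.149 and 0.239 FPKM in untreated and treated wild type, so it passed the filter through knockout libraries. The insulin receptor-related gene Insrr fell (-1.04 ± 0.16, adjusted p = 0.000386). Its mean was 1.5 FPKM in untreated wild type, 0.2 in untreated knockout, 0.821 in treated wild type and 0.598 in treated knockout. Insrr thus reached a mean of 1 FPKM only where it was high, and its call may be favoured by the filter. In knockout 11 of the 36 fell with Romiplostim and none rose, against 18.9% and 10.7% of all genes. Among those that fell were Igf1 (-2.61 ± 0.25, adjusted p = 5.11e-05) and Grb7 (-2.12 ± 0.33, adjusted p = 0.000858). In wild type Pik3r1 (-0.99 ± 0.18, adjusted p = 0.0169) and Igf1 (-1.34 ± 0.25, adjusted p = 0.0203) fell with the drug. Macrophage and stromal markers moved in the same direction as Igf1 between these groups, 9 of 9 and 11 of 12 tested rising in untreated knockout, and their part was not tested.

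Of 15 tested genes around necdin's partners p53 and E2F, 7 were higher and 1 lower in untreated knockout, and 8 fell and 1 rose with Romiplostim in knockout. E2f2, a transcription factor of the E2F family, was higher in untreated knockout (2.45 ± 0.20, adjusted p = 8.67e-06) and fell with the drug there (-2.10 ± 0.20, adjusted p = 5.07e-05). Nucb2, which encodes a calcium-binding partner of necdin, was higher (2.48 ± 0.22, adjusted p = 1.34e-05) and fell (-1.997 ± 0.22, adjusted p = 0.00012) in the same way. None of the 15 was called with the drug in wild type, where 1 had an unadjusted p under 0.05. Of 28 cell cycle genes, 24 were higher in untreated knockout and none lower (median 1.28), led by Plk1, a mitotic kinase gene (2.13 ± 0.17, adjusted p = 8.79e-06). In knockout 17 fell with Romiplostim, and in wild type 5 rose, where 0.866% of all genes did, among them Ccnb2 (1.11 ± 0.17, adjusted p = 0.00704); without untreated wild-type replicate 1 it was 3, and without replicate 3 of untreated and replicate 2 of treated knockout 9. The counts of B cell, macrophage and erythroid markers called higher in untreated knockout were 9 of 9, 9 of 9 and 8 of 10, and their part in these counts was not tested.

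Genes that keep imprints moved in both directions. Of 24 tested, 6 were higher and 2 lower in untreated knockout (median 0.07), where 22.1% of all genes were higher and 23.0% lower, so that the list held about as many higher genes as the background and fewer lower ones. Zfp57, whose protein guards methylated imprints, was the lower one with the smallest p: it was at 1.57, 1.92 and 1.79 FPKM in untreated wild type, against 0.325, 0.306 and 0.240 in untreated knockout. Treated libraries held 1.23, 2.22 and 1.84 FPKM in wild type and 0.745, 0.941 and 1.41 in knockout. Untreated knockout was below all 9 other libraries, and Zfp57 fell by 1.09 ± 0.17 on the log2 scale (adjusted p = 0.000368) and rose with the drug in knockout (0.64 ± 0.17, adjusted p = 0.0151). The maintenance factor Uhrf1 (1.16 ± 0.22, adjusted p = 0.00134) and the Polycomb enzyme gene Ezh2 (0.81 ± 0.17, adjusted p = 0.00266), both known to rise in dividing cells, were higher in untreated knockout. Dnmt3b, a methyltransferase gene, rose with Romiplostim in knockout (1.26 ± 0.26, adjusted p = 0.00438). None of the 24 was called with the drug in wild type, where 2 had an unadjusted p under 0.05.

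Of 10 tested genes linked to H19 and its let-7 axis, 2 were higher and 2 lower in untreated knockout, near the shares over all genes. Hmga2, a chromatin gene that let-7 represses, was lower (-1.79 ± 0.21, adjusted p = 6.5e-05) and rose with the drug in knockout (1.13 ± 0.21, adjusted p = 0.0025). Plag1, an activator of Igf2, was lower as well (-1.25 ± 0.24, adjusted p = 0.00152). Hmga2 was still lower in treated knockout than in treated wild type (-0.99 ± 0.21, adjusted p = 0.0427), a call that was lost when untreated wild-type replicate 1, which is in neither of these groups, was left out of the fit.

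For each tested member up to 3 genes of most similar pattern over the 12 libraries are named, among genes with a mean of at least 5 FPKM. The nearest to Airn was Sult1a1, a sulfotransferase gene (r = 0.913), whose group means were 126.3 FPKM in untreated wild type, then 18.1 in untreated knockout, 8.52 in treated wild type and 7.34 in treated knockout. Its likeness to Airn lies between the groups, since the correlation of the deviations from the group means was -0.31. Rabep1 (r = 0.869) came next. Grb10 was closest to Pyurf (r = 0.977), Lhcgr (r = 0.973) and Bcl7c (r = 0.972), and Ndn to Tgm2 (r = 0.965), Cyp2j6 (r = 0.962) and Gpx7 (r = 0.961). Igf2r was closest to Sdhaf2 (r = 0.886), Dmwd (r = 0.873) and Agtpbp1 (r = 0.87). Lhcgr, the luteinizing hormone receptor gene, went from a mean of 22.3 FPKM in untreated wild type to 1.06 in untreated knockout and 10.4 in treated knockout. These correlations rest on groups that share libraries and were picked as the highest of 8323 or 8324 genes. Between members, Grb10 and Ndn had r = 0.79 and Airn and Grb10 had r = 0.20.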

How the data were processed

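RNA of 12 libraries in 4 groups of 3 was sequenced as read pairs from cDNA made with a low-input kit (SMARTer Ultra Low) without strand marking, per the labels' protocols. FPKM values per gene and library were calculated and deposited by the authors. The submitters' processing notes name TopHat2, Cufflinks 2.2.1 and build mm10, without roles; the annotation release is not given in the sources used here. Identifiers were matched to GENCODE M21 (34490 of 35275; 785 not), and 0 sample columns were left unmatched. Depth was recovered from single-transcript genes, for which 89.5% to 91.5% of low values were whole fragments within 0.05; no libraries were alike within sampling noise.

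Values were converted to log2(FPKM + 1), and limma 3.58.1 (R 4.3.3) fitted 1 mean per group over the 12 libraries, using an intensity trend and Benjamini-Hochberg adjustment over all genes tested in each of 5 comparisons (two-sided, threshold 0.05). Errors are standard errors unless named. The code was tested on simulated data. All 10 members are named. From the lists of related genes at most the 4 with the smallest p per comparison are named, with genes of a member's own cluster added. Of the 3 genes most similar to each tested member, 1 is not reported here. The members and lists were chosen with earlier results of these data known. Deviations of same-numbered replicates correlated over 0.1 in all 3 pairs of the wild-type groups (0.12 to 0.40). The main fit held no pairing, and a block by replicate number was fitted only as an alternative. Correlations over 0.1 did not hold for all pairs of any other comparison (6 of 18 pairs in all). Untreated wild-type replicate 2 correlated as much with treated wild-type replicate 3 (0.12) as with replicate 2. The wild-type pairs 1 and 2 also differed in Y-linked RNA (22.5 against 0.022 FPKM, and 0.137 against 18.5). The labels do not say what a number marks. Alternatives changed the pseudocount, filter, scaling, trend, weights, covariates and libraries.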

Additional observations from a re-analysis of the deposited data

Results flagged for a closer look

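The response to Romiplostim differed between knockout and wild type, by the test of the difference itself, for 3 of the 4 members that could be tested. For Airn the difference was 1.788 on the log2(FPKM + 1) scale (SE 0.285, adjusted p = 0.00374): all 3 treated wild-type libraries were below all 3 untreated ones, and in knockout the groups overlapped. For Grb10 it was 1.263 (SE 0.219, adjusted p = 0.00482): all 3 treated knockout libraries were above all 3 untreated ones, and in wild type the groups overlapped. For Ndn it was 1.669 (SE 0.396, adjusted p = 0.0176): all 3 treated wild-type libraries were below the untreated ones, and in knockout the groups overlapped. The Airn value ranged from 1.598 to 2.495 and the Grb10 value from 1.136 to 1.472 over the alternative analyses, and the Ndn value from 1.333 to 1.962 with adjusted p up to 0.0475. All 3 kept their call in each of them.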

How the results depend on the processing

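For the 4 tested members in 5 comparisons, 446 values were computed under 23 alternatives, and 419 kept direction and side of the threshold. Of the others 14 lost a call, all of them that of Ndn for Romiplostim in wild type, 9 gained one and 4 changed sign. The sign changes all concern Igf2r between the untreated genotypes, which was never called: -0.247 with library weights, -0.043 without replicate 3 of untreated and replicate 2 of treated knockout together, and -0.139 to 0.289 with 1 library left out. Library weights, whose estimation stopped before converging, gave 5 of the 9 gained calls.

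Counts over all genes moved more than the members' values. For Romiplostim in wild type 236 genes were called, against 122 with a filter at 5 FPKM, 2488 with library weights, 628 with only the groups compared, 438 without the 2 libraries above and 65 to 469 with 1 library left out. For Romiplostim in knockout 3797 became 7138 with weights, 2021 with only the groups compared, 1059 with the Y-linked level as covariate and 2368 to 4308 with 1 library left out. Between the treated genotypes 176 became 326 with a pseudocount of 0.1, 57 with no filter, 270 with quantile normalization, 4327 with weights, 57 with only the groups compared, 28 with the Y-linked covariate, 1712 without the 2 libraries and 31 to 1559 with 1 left out. The difference of responses went from 1996 to 6220 with weights, 487 with the covariate and 1088 to 2687 with 1 left out. The count of 5779 between the untreated genotypes stayed within 1.5 times. The causes of these shifts were not tested.

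With the replicate number as a block the counts were 5788, 199, 3787, 174 and 1922, and among the members the replicate block changed only the Ndn call for Romiplostim in wild type (-1.261, adjusted p = 0.0689). The replicate block with the 6 wild-type libraries alone, added after seeing the data, gave 864 genes for Romiplostim in wild type and left the members' calls there as reported. Leaving out a library leaves 2 in its group, and the spread is then pooled over all groups. Depth limits H19, Igf2, Mirg and Peg3, which have at most 39 fragments in any library.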
